A study of Mus musculus with 4 samples.

Results

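Basal cells of the anterior prostate (AP) and of the ventral prostate (VP) were compared in intact adult mice, within the cells that carried the Runx1 reporter. The population comprised 767 single cells, 622 from the AP and 145 from the VP, of 19148 cells in the series and of 2322 basal cells assigned to a sorted population in the adult runs. Members were chosen by measured values of their sample barcodes and of Epcam, Ptprc, Krt5 and Krt14. Cells were kept with 750 to 7500 detected genes and under 10% of their unique molecular identifiers (UMIs, counts of original RNA molecules) from mitochondrial genes. The sorted population of a cell was taken from its top sample barcode, if that count, divided by the barcode median over the library, was at least 3 and at least 2 times the second. A cell was called basal with at least 1 Epcam UMI, no Ptprc UMI and at least 5 UMIs of Krt5 and Krt14 together per 10000.

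Both groups came from adult P2-Runx1:RFP males on the ICR (CD-1) background, over 8 weeks old and not castrated, and both were the RFP High (RFP+) fraction of live EPCAM+ sorted cells. The P2-Runx1:RFP allele drives a red fluorescent protein from the proximal P2 promoter of Runx1, so RFP reports activity of that promoter, and wild-type Runx1 comes from the remaining allele in all mice of either group. AP, dorsolateral (DLP) and VP lobes were micro-dissected from several mice per run and pooled, so no value belongs to a single animal. The study addressed which epithelial cells of each lobe express Runx1, and 3 adult 10x Genomics runs held intact RFP+ cells of both lobes. The RFP- (RFP Low) basal cells and RFP+ luminal cells of the same lobes, the RFP+ DLP basal cells of run 3 and the RFP+ basal cells of mice castrated for over 4 weeks in run 2 were used for comparison.

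Prostate basal cells line the outside of the epithelial tube between the secretory luminal cells and the basement membrane. They express keratins 5 and 14 and the transcription factor p63, attach to the basement membrane through hemidesmosomes, and deposit part of that membrane and of its proteoglycans. The mouse prostate lobes differ in ductal architecture and in the secretory proteins made by their luminal cells, whereas basal cells of all lobes share the same keratins.

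Lobes were told apart by a MULTI-seq oligonucleotide, a lipid-anchored DNA tag added to each sorted population before pooling. The oligonucleotides that define the groups are shown because every lobe assignment rests on their 8-base barcode, in capitals. The flanks are an amplification handle and a poly(A) tail that is captured like messenger RNA.
AP, runs 1 and 2: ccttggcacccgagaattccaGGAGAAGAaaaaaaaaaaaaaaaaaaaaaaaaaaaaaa
VP, runs 1 and 2, and AP, run 3: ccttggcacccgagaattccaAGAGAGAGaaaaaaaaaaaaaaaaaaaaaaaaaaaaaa
VP, run 3: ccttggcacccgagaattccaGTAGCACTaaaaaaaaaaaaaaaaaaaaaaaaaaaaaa
The same tag therefore marked VP cells in runs 1 and 2 and AP cells in run 3. For VP in run 3 the barcode column of the study's sample sheet lists AGAGAGAG, the AP barcode of that run, while the full oligonucleotide holds GTAGCACT and the counts of the 2 barcodes in that run had different medians, 14 for AP and 29 for VP.

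The VP group was the smaller in every run. Runs 1, 2 and 3 held 223, 139 and 260 AP cells and 29, 54 and 62 VP cells, with 5372834, 1899792 and 2976928 UMIs in the AP sums and 384217, 680520 and 569357 in the VP sums. Cells are not replicates, so UMIs were summed per run and lobe and n was 3 runs per lobe. Levels are given as CPM (UMI counts per 1000000), scaled with edgeR's TMM factors. A single UMI was worth 0.164, 0.534 and 0.364 CPM in the AP sums and 2.31, 1.498 and 2.00 CPM in the VP sums, so genes of low level were measured more coarsely in the VP. The median cell held 20092, 9833 and 9447 UMIs in the AP and 10929, 10235 and 8284 in the VP, and the deeper AP cells of run 1 stood apart. No cell barcode of a member was shared between runs.

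The gate genes are given without a test. The median of Krt5 and Krt14 together was 33.1, 26.7 and 23.4 UMIs per 10000 in AP cells and 33.1, 27.1 and 22.97 in VP cells of runs 1, 2 and 3. Near the threshold, 10 AP members lay between 5 and 6 UMIs per 10000 and 15 AP cells between 4 and 5, against 2 members and 2 cells of the VP. Trp63, which encodes p63 and was not part of the rule, had at least 1 UMI in 441 AP members (70.9%) and 96 VP members (66.2%), and its level was 115, 107 and 119.8 CPM in the AP and 205, 118 and 146 CPM in the VP. Krt15, a keratin of basal cells, and Itgb4, the hemidesmosomal integrin, were at 5349.6, 5208 and 7151 and 133, 101 and 110.3 CPM in the AP and 8241, 7269 and 8247 and 138, 102 and 110.1 CPM in the VP, so the basal label held in both lobes. The difference of Trp63 was -0.44 ± 0.14 (adjusted p = 0.0645) with run as a block.

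RNA of other cell types was present and differed between libraries. The summed level of 10 luminal secretory markers was 3807, 36484 and 2657 CPM in the AP of runs 1, 2 and 3 and 2905, 7110 and 8549 CPM in the VP. In the AP of run 2, 5 of 139 cells held 93.2% of the UMIs of Sbp, a VP secretory protein, and Sbp had a UMI in every member of either lobe. The 6 seminal vesicle and mesonephric markers summed to 1663 CPM in the AP of run 1, where 5 cells held 99.4% of the Svs5 UMIs, and to at most 32.3 CPM in the other sums. The 5 smooth muscle markers summed to 359 CPM in the AP and 892 CPM in the VP of run 1 and to at most 31.0 CPM elsewhere. The 6 fibroblast markers summed to 99.2, 100.3 and 3.28 CPM in the AP against 4.61, 15.0 and 6.00 CPM in the VP. T and NK, myeloid, neuroendocrine and Schwann cell markers summed to at most 19.2 CPM, with Cd3d and Chga at 0 in all 6 sums. Their part in the lobe differences was not tested, and each result they move with is given with their values.

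**Figure D1:**
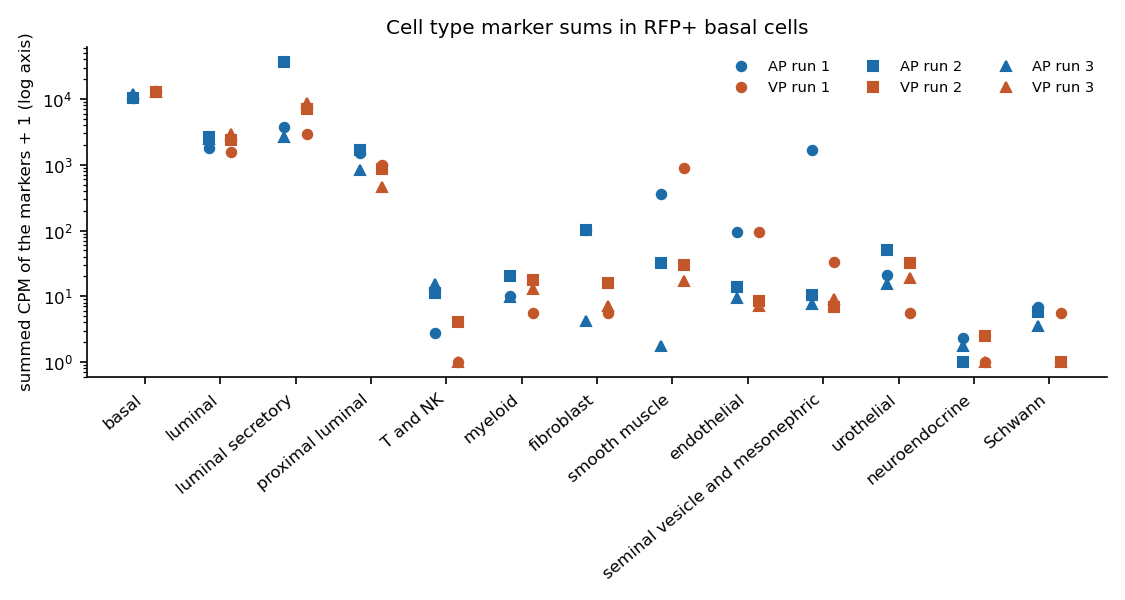
Summed CPM plus 1 (log axis) of the markers of each cell type in the 6 sums of RFP+ basal cells, AP in blue on the left and VP in orange on the right of each position, with 1 symbol per run. Basal markers lay between 10225 and 11828 CPM in the AP and between 12608 and 13190 CPM in the VP. Luminal secretory markers stood at 36484 CPM in the AP of run 2 and seminal vesicle markers at 1663 CPM in the AP of run 1.

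The comparison of the lobes found 4 genes, all higher in the VP. The genes were Lhfp (Lhfpl6), a tetraspan membrane protein of the lipoma HMGIC fusion partner family, Ogn, the small leucine-rich proteoglycan osteoglycin, Cck, the precursor of the peptide hormone cholecystokinin, and Scnn1b, the beta subunit of the epithelial sodium channel. They were the genes past an adjusted p of 0.05 among 8183 tested (0.0489%, edgeR quasi-likelihood test without a run term, Benjamini-Hochberg adjustment). At an unadjusted p under 0.05 there were 511 of the 8183 genes, little above the share that this cutoff passes where no gene differs. DESeq2 on the same sums called 49 of the 8183, of which 15 were higher in the AP and 34 in the VP.

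Lhfp (ENSMUSG00000048332, chr3:53041528-53261679 in GRCm38) was at 18.9, 20.3 and 15.7 CPM in the AP and 62.3, 67.4 and 66.1 CPM in the VP. Lhfp differed by -1.84 ± 0.21 (adjusted p = 0.0372), log2 AP over VP. Ogn (ENSMUSG00000021390, chr13:49608046-49624501) was at 4.60, 6.41 and 4.01 CPM in the AP and 25.4, 82.4 and 70.1 CPM in the VP. Ogn differed by -3.63 ± 0.42 (adjusted p = 0.0372) on the log2 scale. For both genes every VP sum exceeded every AP sum, with Ogn lowest of the VP in run 1. Cck (ENSMUSG00000032532, chr9:121489824-121495694) was near its floor in the AP at 0.822, 2.67 and 1.09 CPM and at 36.9, 27.0 and 16.01 CPM in the VP. Cck differed by -4.30 ± 0.52 (adjusted p = 0.0372) on the log2 scale, and rested on 5, 5 and 3 UMIs in the AP and 16, 18 and 8 UMIs in the VP. Scnn1b (ENSMUSG00000030873, chr7:121865038-121918514) was at 11.02, 9.61 and 13.5 CPM in the AP and 50.7, 49.5 and 38.0 CPM in the VP. Scnn1b differed by -2.01 ± 0.25 (adjusted p = 0.0432) on the log2 scale. The groups did not overlap for any of the 4 genes, as for 978 of all genes tested (11.95%).

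Lhfp, Ogn and Scnn1b were detected in a larger share of VP than of AP cells in each run. After thinning each cell to 5000 UMIs, Lhfp had a UMI in 6.88, 11.7 and 8.91% of AP cells and 32.1, 22.6 and 24.6% of VP cells. Unthinned, the shares of the same cells were 14.6 to 29.8% in the AP and 42.1 to 50.9% in the VP. Ogn had a UMI in 3.67, 5.0 and 1.62% of thinned AP cells and 10.7, 24.5 and 24.6% of VP cells, and Scnn1b in 5.96, 5.83 and 6.48% against 28.6, 20.8 and 15.8%. Deep enough for this were 218, 120 and 247 AP and 28, 53 and 57 VP cells. In immune cells of the same libraries (Ptprc with at least 1 UMI, no Epcam UMI, median 6131 and 5933 UMIs in runs 1 and 2), which serve as background for free RNA, thinned shares of the 3 genes were between 0 and 1.01% in runs 1 and 2. Cck in thinned cells was too rare to order, at 1, 2 and 1 AP cells and 3, 2 and 4 VP cells.

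Without the run term, the calls changed when a run was left out. Without run 3, 6 genes were called, 5 of them higher in the AP, and the 1 gene called with cells limited to 7500 UMIs was higher in the AP. Without run 1 the adjusted p was 0.0693 for Lhfp, 0.0066 for Ogn, 0.0875 for Cck and 0.088 for Scnn1b, without run 3 it lay between 0.0768 and 0.135, and without run 2 it was 1.00 for each, while the log2 differences stayed between -4.75 and -1.72. With run as a block, described next, all 4 were past the threshold, at adjusted p between 3.14e-08 and 9.11e-06.

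**Figure D2:**
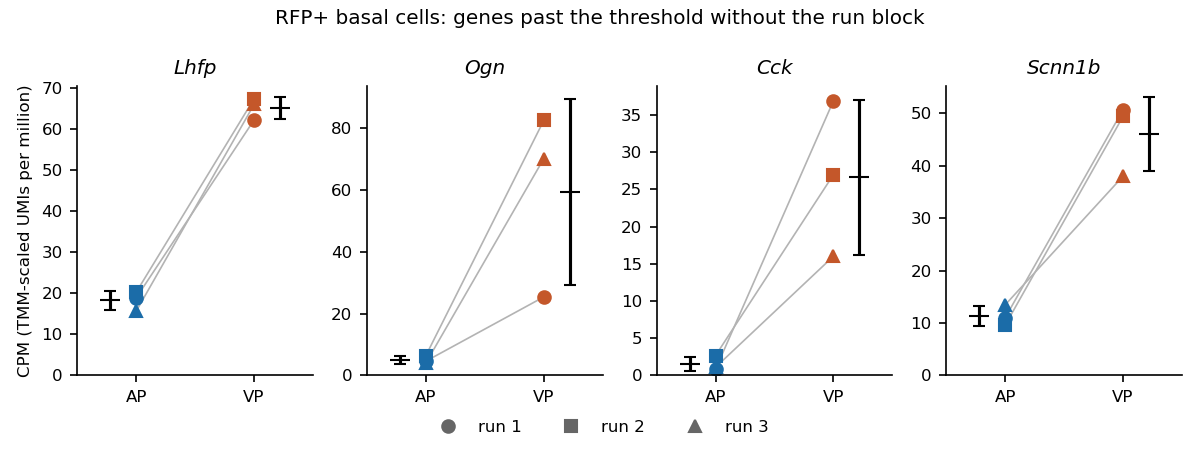
CPM of Lhfp, Ogn, Cck and Scnn1b in RFP+ basal cells of the AP (blue) and VP (orange), with 1 symbol per run, grey lines joining the lobes of a run, and black bars for the mean ± SD of 3 runs. Every VP value lies above every AP value, with Ogn in the VP between 25.4 and 82.4 CPM.

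AP and VP cells of a run came from the same pooled mice and the same library, and the sums of a run deviated together. Fitted with run as a block, which compares the lobes within each run, the edgeR quasi-likelihood test found 414 of 8183 genes past an adjusted p of 0.05 (5.06%), 212 higher in the AP (2.59%) and 202 higher in the VP (2.47%). The median of their absolute log2 differences was 0.89, and 388 of the 414 kept their direction in all 3 runs. DESeq2 with the same block called 136, all of them among the 414 and in the same direction. The study's methods word the upper limit per cell in UMIs, and it was applied here to detected genes. Read as 7500 UMIs, the limit left 25, 45 and 63 AP cells and 10, 16 and 25 VP cells in runs 1, 2 and 3, and the number called fell to 44 of 2026 tested, 20 higher in the AP and 24 in the VP. The number called ranged from 210 to 531 with 1 run left out. All values below with an adjusted p are from the edgeR fit with run as a block unless stated, since without it no gene beyond the 4 passed. Over 17 other settings of the blocked fit the adjusted p reached at most 2.77e-06 for Apoe, 7.55e-05 for Dcn, 0.0031 for S100a6 and 0.0014 for Tpm2, while Smoc2 was called in 15 of the 17. The gene lists were chosen with earlier results of these data known, and their counts are descriptions beside a background of 5.06% and a median log2 difference of -0.01 over all genes tested.

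**Figure D3:**
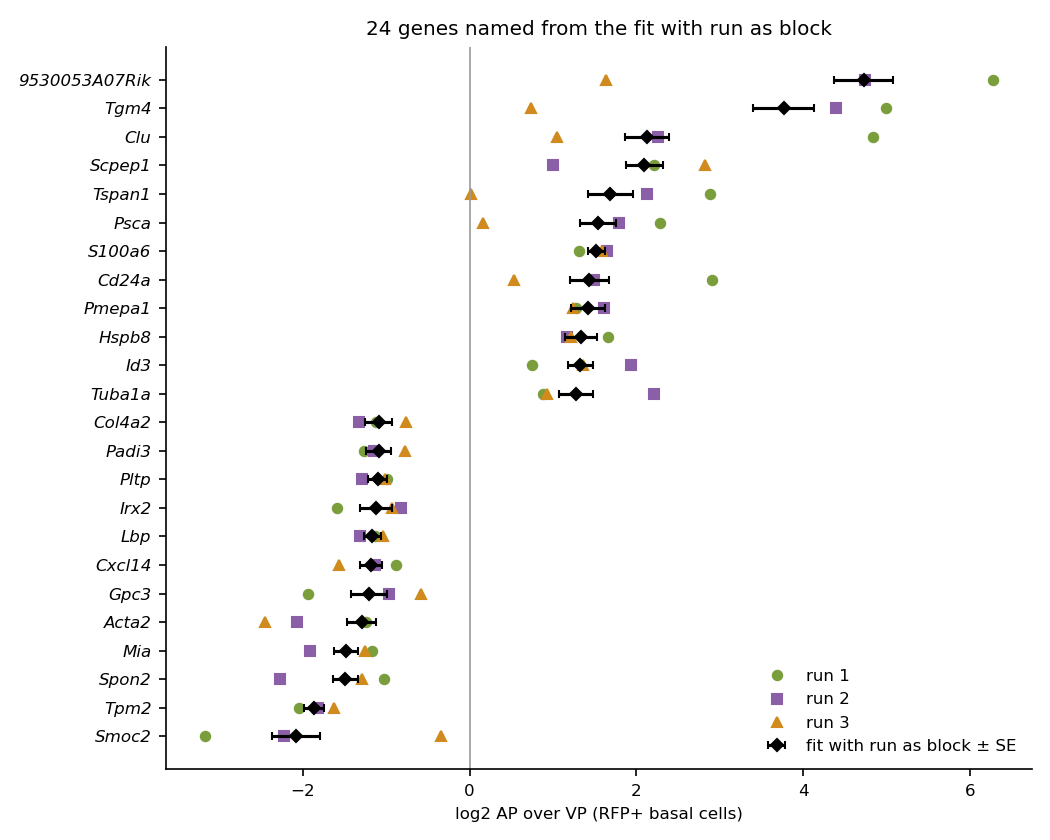
Log2 AP over VP for the 12 genes with the largest differences in each direction (mean of at least 50 CPM, same direction in all 3 runs), with coloured symbols for each run and black diamonds for the fit with run as a block ± SE. Genes such as S100a6, Lbp and Pltp lie close together in the 3 runs, while Smoc2, Cd24a and Psca spread widely.

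Extracellular matrix genes were called mainly on the VP side. Of 15 matricellular and proteoglycan genes tested, 10 were higher in the VP and 2 in the AP, with a median log2 difference of -0.59. Dcn, the collagen-binding proteoglycan decorin (chr10:97479609-97518143), was at 2925, 2516 and 3607 CPM in the AP and 4676, 5432 and 6969.5 CPM in the VP. Dcn differed by -0.91 ± 0.09 (adjusted p = 9.78e-08) on the log2 scale. Decorin RNA was found in nearly every basal cell. After thinning each cell to 5000 UMIs, 98.6, 96.7 and 97.6% of AP cells had a UMI, as did every VP cell in runs 1 and 3 and 96.2% in run 2, against 8.00 and 4.55% of immune cells in runs 1 and 2. Vcan, the large hyaluronan-binding proteoglycan versican, was at 10.7, 22.4 and 14.2 CPM in the AP and 27.7, 106 and 50.04 CPM in the VP. Vcan differed by -1.90 ± 0.23 (adjusted p = 2.54e-06) on the log2 scale. For both genes each VP sum exceeded each AP sum.

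Smoc2 and Mia, which were not in that list, were also higher in the VP. Smoc2, a calcium-binding matricellular protein, was at 19.2, 28.3 and 36.4 CPM in the AP and 173, 132 and 46.0 CPM in the VP. Smoc2 differed by -2.08 ± 0.29 (adjusted p = 2.13e-05) on the log2 scale, with a wide spread among VP runs, by -1.40 without run 1 and by -2.73 without run 3. Mia, a small secreted protein that binds fibronectin, was at 14.3, 50.7 and 147 CPM and 32.3, 192 and 350.3 CPM (log2 -1.48 ± 0.15, adjusted p = 2.75e-07). Mia overlapped between lobes across runs, and the VP was the higher within each run. Among the list's members, Spon2, a secreted spondin, was at 235, 76.9 and 237 CPM in the AP and 479.6, 370.1 and 580.5 CPM in the VP (log2 -1.49 ± 0.15, adjusted p = 4.51e-07). Cyr61, an integrin-binding matricellular protein, was at 947, 678 and 571 CPM in the AP and 1079, 1542 and 1235 CPM in the VP (log2 -0.83 ± 0.14, adjusted p = 0.000244). Gpc3, a membrane-anchored heparan sulfate proteoglycan, was at 30.1, 28.3 and 47.0 CPM in the AP and 115, 55.4 and 70.1 CPM in the VP (log2 -1.20 ± 0.22, adjusted p = 0.000733). Its call was lost without run 1 (adjusted p = 0.125). The other members called higher in the VP were Fbln2, Ctgf, Sparc, Sdc1 and Thbs1. They lost the call without run 2 for Fbln2 and Ctgf (adjusted p = 0.0839 and 0.407), without run 3 for Sparc (0.335), without run 1 for Sdc1 (0.0698) and without run 1 or 2 for Thbs1 (0.169 and 0.855).

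The 2 matrix genes higher in the AP were Mgp and Bgn, and both moved with fibroblast markers. Mgp, a calcification inhibitor made by stromal cells, was at 336, 566 and 25.9 CPM in the AP and 9.22, 52.4 and 44.0 CPM in the VP (log2 2.93 ± 0.40, adjusted p = 2.28e-05). It was higher in the AP of 2 of 3 runs, with an adjusted p of 0.0524 without run 1, while fibroblast markers were also high in the AP of runs 1 and 2. In cells left after removing those with markers of other cell types, the difference of Mgp was -0.45 (adjusted p = 0.425) and Bgn was too low to be tested. That filter removed cells by summed UMIs of the fibroblast, smooth muscle, endothelial, myeloid and T and NK markers. It also removed cells with a high share of luminal secretory and seminal vesicle markers. Bgn, the proteoglycan biglycan, was at 51.0, 49.1 and 0 CPM in the AP and 6.92, 1.498 and 0 CPM in the VP (log2 3.73 ± 0.47, adjusted p = 9.11e-06, and 2.86 without run 2).

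Basement membrane genes were higher in the VP where they passed. Of 19 tested, 4 were higher in the VP and none in the AP, with a median log2 difference of -0.30. The neighbouring collagen IV genes moved together, with Col4a1 at 82.7, 104 and 101 CPM in the AP and 164, 229 and 174 CPM in the VP (log2 -0.98 ± 0.12, adjusted p = 7.13e-06). Col4a2 was at 43.6, 59.2 and 48.4 CPM and 94.5, 148 and 82.1 CPM (log2 -1.09 ± 0.16, adjusted p = 7.13e-05). All VP values of both genes were above all AP values. Lama3 and Lamb3, chains of the epithelial laminin that anchors hemidesmosomes, differed by -0.73 ± 0.18 (adjusted p = 0.0128) and -0.56 ± 0.14 (adjusted p = 0.013), and lost their calls without run 1 (adjusted p = 0.125 and 0.256) and without run 2 (adjusted p = 0.0947 and 0.252). Among 16 genes of hemidesmosomes and basal adhesion, 2 were higher in the VP, Cd151 and Cdh3 (adjusted p = 0.0658 and 0.12 for Cdh3 without runs 1 and 2), and Perp, a desmosomal protein, was at 519.7, 375 and 493 CPM in the AP and 482, 433 and 518 CPM in the VP (adjusted p = 0.883).

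Of 9 contractile genes tested, 5 were higher in the VP, and these genes moved with smooth muscle markers in run 1. Tpm2, a tropomyosin, was at 175, 87.0 and 50.6 CPM in the AP and 724, 306 and 156 CPM in the VP. Tpm2 differed by -1.86 ± 0.12 (adjusted p = 1.87e-10) on the log2 scale, with the VP higher in each run by 1.63 to 2.04 on the log2 scale although the lobes overlapped across runs. It remained past the threshold without cells that carried markers of other cell types, at -1.62 (adjusted p = 3.03e-18). Acta2, smooth muscle actin (log2 -1.29 ± 0.17, adjusted p = 1.39e-05), was at 277, 2.14 and 0.364 CPM in the AP and 657, 8.99 and 2.00 CPM in the VP, so that almost all of it came from run 1, where 5 AP cells held 82.6% and 5 VP cells 100% of its UMIs. The cells with markers of other types were picked partly by their Acta2 UMIs. Acta2 was too low to be tested once they were left out, and since the filter used Acta2 itself, this does not bear on its source. Myl9, a myosin light chain outside the marker lists, was also too low to be tested there. Tagln, an actin-binding protein, was at 224, 16.01 and 10.2 CPM in the AP and 417, 52.4 and 16.01 CPM in the VP (log2 -1.04 ± 0.17, adjusted p = 0.000157), and its adjusted p without run 1 was 0.0524, against 0.704 for Myl9. Tpm1 did not pass, at 0.21 ± 0.12 (adjusted p = 0.414).

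The secreted proteins Apoe, Pltp and Lbp were higher in the VP. Apoe, the apolipoprotein of lipid transport (chr7:19696109-19699188), was the most abundant of the 3 at 7651, 7900.2 and 8870.4 CPM in the AP and 19063, 15277 and 17084 CPM in the VP. Apoe was 2.10-fold higher in the VP (log2 -1.07 ± 0.07, adjusted p = 1.87e-10). Pltp, which transfers phospholipids between lipoproteins, was at 124, 145 and 150 CPM in the AP and 247, 354 and 304 CPM in the VP (log2 -1.10 ± 0.11, adjusted p = 4.31e-07). Lbp, a protein that binds bacterial lipopolysaccharide, was at 456, 535 and 508 CPM and 1003, 1332 and 1043 CPM (log2 -1.16 ± 0.11, adjusted p = 6.07e-08). None of the 3 genes overlapped between lobes. Immune cells of runs 1 and 2 held Apoe at 4606 and 2712 UMIs per 1000000, Pltp at 347 and 111, and Lbp at 13.7 and 7.44. After thinning to 5000 UMIs, Apoe had a UMI in 32.0 and 26.8% of these immune cells, against every AP cell in each run and 98.1% or more of VP cells.

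Cxcl14, a chemokine of epithelia, was at 118, 68.9 and 70.3 CPM in the AP and 217, 151 and 208 CPM in the VP (log2 -1.18 ± 0.13, adjusted p = 1.59e-06). Lcn2, the iron-siderophore-binding lipocalin, was at 558, 321 and 345 CPM in the AP and 985, 539 and 592 CPM in the VP (log2 -0.78 ± 0.11, adjusted p = 2.13e-05), with overlap across runs. Defb1, a beta-defensin, went the other way at 764, 816 and 785 CPM in the AP and 219, 412 and 518 CPM in the VP (log2 1.10 ± 0.15, adjusted p = 1.88e-05). Of 7 antimicrobial genes tested, 1 was higher in the VP and 2, Defb1 and Clu, in the AP. Padi3, a peptidylarginine deiminase, was at 79.8, 53.4 and 50.3 CPM in the AP and 191, 118 and 86.1 CPM in the VP (log2 -1.09 ± 0.15, adjusted p = 2.09e-05). Ifitm2 and Ifitm3, interferon-induced membrane proteins, were higher in the VP, with log2 differences of -0.72 ± 0.11 (adjusted p = 7.54e-05) and -0.68 ± 0.10 (adjusted p = 6.59e-05), the calls among 21 genes of MHC class I and interferon response tested.

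Of 22 glycolysis and hypoxia genes tested, 4 were higher in the VP and none in the AP, 19 had a difference below 0 and the median log2 difference was -0.20. Car12, a membrane carbonic anhydrase, was at 7.56, 10.7 and 17.8 CPM in the AP and 53.0, 50.9 and 104 CPM in the VP (log2 -2.54 ± 0.22, adjusted p = 3.14e-08). Egln3, a prolyl hydroxylase of the HIF pathway, was at 10.9, 13.9 and 21.1 CPM in the AP and 62.3, 67.4 and 60.0 CPM in the VP (log2 -2.08 ± 0.23, adjusted p = 1.16e-06). Both were higher in every VP sum than in any AP sum. The other calls were Eno1, a glycolytic enzyme, and Adm, the peptide adrenomedullin, and Gapdh was at 513, 446 and 552 CPM in the AP and 625, 432 and 667 CPM in the VP (adjusted p = 0.536). Eno1 lost its call without run 1 (adjusted p = 0.0837) and Adm without run 1 or run 2 (adjusted p = 0.186 and 0.276). Trf, the iron carrier transferrin, was at 2.47, 2.67 and 7.28 CPM in the AP and at 53.0, 46.5 and 26.0 CPM in the VP (log2 -3.40 ± 0.40, adjusted p = 2.3e-06). Its difference was -2.78 without run 1 and -4.28 without run 3. Immune cells of runs 1 and 2 held more Trf than either lobe, at 328 and 206 UMIs per 1000000, and their part in the difference was not tested.

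On the AP side, S100a6 was the most abundant gene with a large difference. S100a6, a calcium-binding protein of the S100 family (chr3:90612882-90624181), was at 1144, 2250.3 and 2562 CPM in the AP and 461, 715 and 853 CPM in the VP. S100a6 was 2.87-fold higher in the AP (log2 1.52 ± 0.10, adjusted p = 2.65e-10). The groups did not overlap, and after thinning 95.9, 96.7 and 97.2% of AP cells had a UMI against 64.3, 66.0 and 66.7% of VP cells. Of immune cells in runs 1 and 2, 86.7 and 63.1% had a UMI, so they are no background for it. It was the 1 call among 7 S100 genes tested. Anxa3, a calcium-dependent membrane-binding annexin, was at 421, 364 and 340.5 CPM in the AP and 198, 153 and 168 CPM in the VP (log2 1.12 ± 0.12, adjusted p = 7.01e-07), also without overlap.

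Further genes higher in the AP were Gsta3, Txnrd1, Hspb8, Tuba1a, Mt1, Mt2 and Sfn. Gsta3, a glutathione transferase, was at 72.4, 69.4 and 74.6 CPM in the AP and 23.1, 18.0 and 34.0 CPM in the VP (log2 1.55 ± 0.22, adjusted p = 4.03e-05), with no overlap. Txnrd1, thioredoxin reductase, was at 109.5, 277 and 138 CPM in the AP and 62.3, 111 and 106 CPM in the VP (log2 0.89 ± 0.16, adjusted p = 0.00053). It lost its call without run 2 (adjusted p = 0.12). Of 27 glutathione and NRF2 genes tested, 2 were higher in each lobe, and the median log2 difference was 0.01. Hspb8, a small heat shock protein, was at 117, 90.7 and 69.5 CPM in the AP and 36.9, 40.5 and 30.0 CPM in the VP (log2 1.34 ± 0.19, adjusted p = 3.1e-05), while Hspa1b, higher in the VP, was the call among 12 heat shock genes listed separately. Tuba1a, an alpha-tubulin, was at 135, 104 and 83.8 CPM in the AP and 73.8, 22.5 and 44.0 CPM in the VP (log2 1.27 ± 0.20, adjusted p = 0.000156). Mt1 and Mt2, the metal-binding metallothioneins, were higher in the AP by 0.57 ± 0.09 (adjusted p = 0.000155) and 0.55 ± 0.11 (adjusted p = 0.00132), and Sfn, the epithelial 14-3-3 sigma, by 0.67 ± 0.10 (adjusted p = 7.18e-05).

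Among 10 surface proteins used to enrich prostate progenitors, 4 were higher in the AP and 1 in the VP, with a median log2 difference of 0.56. Ly6a (Sca-1) was at 756, 447 and 304 CPM in the AP and 500.4, 202 and 146 CPM in the VP (log2 0.92 ± 0.13, adjusted p = 2.13e-05), higher in the AP of each run although the lobes overlapped across runs. Cd59a and Cd200 were also called in the AP. Pdpn, the mucin-like podoplanin, was the exception at 117, 101 and 137 CPM in the AP and 217, 157 and 188 CPM in the VP (log2 -0.66 ± 0.12, adjusted p = 0.00105). It lost its call without run 1 (adjusted p = 0.0644). Cd24a, a glycoprotein by which luminal cells are sorted, was at 122, 114 and 87.0 CPM in the AP and 16.1, 40.5 and 60.0 CPM in the VP (log2 1.44 ± 0.24, adjusted p = 0.000232). The 10 luminal markers summed to 1778, 2684 and 2452 CPM in the AP and 1589, 2341 and 2904 CPM in the VP. The 10 proximal luminal markers, Ly6a, Psca and Clu among them, were higher in the AP of each run. They summed to 1510, 1675 and 827 CPM in the AP and 994, 869 and 450 CPM in the VP. The part of proximal luminal RNA in the lobe differences was not tested.

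Of 12 polarity and tight junction genes, 3 were higher in the AP and none in the VP, with a median log2 difference of 0.56. Cldn4, a claudin, was at 541, 642 and 765 CPM in the AP and 417, 366 and 538 CPM in the VP (log2 0.57 ± 0.11, adjusted p = 0.00231), while Cldn7 and Ocln differed by 0.81 ± 0.15 (adjusted p = 0.000759) and 1.29 ± 0.37 (adjusted p = 0.0404). Cldn4 and Cldn7 lost their calls without run 2 (adjusted p = 0.126 and 0.0795), and Ocln without run 1, 2 or 3 (adjusted p = 0.148, 0.194 and 0.0936). Krt15 was higher in the VP (log2 -0.44 ± 0.08, adjusted p = 0.000606), at 8241, 7269 and 8247 CPM against 5349.6, 5208 and 7151 CPM in the AP. Krt17, a stress-associated basal keratin, was higher in the AP by 0.51 ± 0.11 (adjusted p = 0.00337), at 854, 891 and 591 CPM in the AP and 599.5, 662 and 394 CPM in the VP. Krt19, a keratin shared with luminal cells, differed by 0.60 ± 0.12 (adjusted p = 0.00258), with an adjusted p of 0.0533 without run 1.

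Among transcriptional regulators, the inhibitors of DNA binding Id1, Id2 and Id3 were higher in the AP. Of 40 positional and lineage transcription factors tested, 5 were higher in each lobe. Id3, a dominant-negative helix-loop-helix protein induced by BMP signals, was at 1338, 805 and 760.3 CPM in the AP and 793, 209.8 and 296 CPM in the VP (log2 1.33 ± 0.15, adjusted p = 1.16e-06). Id1 was at 841, 761 and 762 CPM in the AP and 646, 328 and 502 CPM in the VP (log2 0.73 ± 0.13, adjusted p = 0.000582), and Id2 differed by 0.56 ± 0.14 (adjusted p = 0.0128), with adjusted p of 0.056 and 0.301 without run 2. Each of the 3 was higher in the AP of every run. Klf5 and Foxq1, factors of epithelial proliferation and differentiation, were higher in the AP by 0.89 ± 0.16 (adjusted p = 0.000582) and 1.07 ± 0.19 (adjusted p = 0.000586).

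The factors higher in the VP were Irx2, Nfib, Foxc1, Sox2 and Snai2, and Hoxb13 among 8 HOX genes. Hoxb13, a homeobox gene of the posterior body axis required for normal VP differentiation, was at 212, 215 and 195 CPM in the AP and 302, 285 and 326 CPM in the VP (log2 -0.55 ± 0.11, adjusted p = 0.00284), with no overlap. Irx2, an Iroquois homeobox factor, was at 30.8, 30.4 and 51.3 CPM in the AP and 92.2, 53.9 and 98.1 CPM in the VP (log2 -1.13 ± 0.19, adjusted p = 0.000372). Sox2, a factor of stem and basal cells, differed by -0.94 ± 0.26 (adjusted p = 0.031) and Snai2, a repressor of epithelial genes, by -0.66 ± 0.18 (adjusted p = 0.0319). The calls of Sox2, Snai2 and Foxc1 were lost without run 1 (adjusted p = 0.122, 0.212 and 0.171) and without run 2 (adjusted p = 0.532, 0.51 and 0.236), and that of Nfib without run 2 (adjusted p = 0.0932).

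Signalling genes divided between the lobes. Smad7, an inhibitor of TGF-beta signalling that the pathway itself induces, was at 94.6, 163 and 153 CPM in the AP and 66.9, 67.4 and 68.1 CPM in the VP (log2 1.02 ± 0.16, adjusted p = 9.89e-05). Pmepa1, another induced inhibitor, was at 22.4, 119 and 109 CPM and 9.22, 39.0 and 46.0 CPM (log2 1.42 ± 0.20, adjusted p = 4.09e-05). Tgfb3, the ligand, was higher in the VP at 13.8, 28.5 and 16.01 CPM against 4.44, 8.01 and 1.82 CPM (log2 -2.03 ± 0.42, adjusted p = 0.00307). Of 21 BMP and TGF-beta genes tested, Smad7 and Tgfb3 were the calls. Hbegf, a heparin-binding ligand of the EGF receptor, was at 699.9, 1883 and 1609 CPM in the AP and 327, 1068 and 797 CPM in the VP (log2 0.97 ± 0.10, adjusted p = 7.47e-07), the AP higher in each run. Lrig1, which restrains that receptor, was higher in the VP at 39.2, 23.98 and 12.01 CPM against 6.91, 4.80 and 8.74 CPM (log2 -1.88 ± 0.39, adjusted p = 0.00268), with an adjusted p of 0.217 without run 1. With Errfi1 and Nrg2 it gave 3 VP calls among 8 EGF family genes.

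Pdgfa, the platelet-derived growth factor chain that signals to stroma, was at 410.2, 279 and 335 CPM in the AP and 736, 731 and 620.5 CPM in the VP (log2 -1.04 ± 0.12, adjusted p = 1.63e-06), with no overlap. In the WNT list of 19 genes, the receptor gene Fzd2 was higher in the VP at 73.8, 59.9 and 62.0 CPM against 38.5, 24.02 and 25.1 CPM (log2 -1.17 ± 0.20, adjusted p = 0.000357), as was Ror2. Axin2, a target and inhibitor of the pathway, was higher in the AP at 29.1, 20.8 and 22.2 CPM against 11.5, 5.99 and 10.0 CPM (log2 1.41 ± 0.34, adjusted p = 0.0126). It lost its call without run 1 or run 2 (adjusted p = 0.111 and 0.105). Of 7 retinoid genes tested, 2 were higher in the VP and none in the AP, among them Dhrs3. Aldh1a1, a retinaldehyde dehydrogenase, was at 355, 491 and 481 CPM and 367, 497 and 452 CPM (adjusted p = 0.989).

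9530053A07Rik and Tgm4 had the largest differences among the named genes higher in the AP, and both were unevenly spread over runs and cells. 9530053A07Rik, a gene of the mucin-like IgG Fc-binding type, was at 1785, 927 and 81.2 CPM in the AP and 23.1, 34.5 and 26.0 CPM in the VP (log2 4.73 ± 0.35, adjusted p = 1.26e-09). Tgm4, the prostate transglutaminase secreted by AP luminal cells, was at 1031, 665 and 70.3 CPM in the AP and 32.3, 31.5 and 42.0 CPM in the VP (log2 3.77 ± 0.37, adjusted p = 1.63e-07). In both the AP of runs 1 and 2 was far above that of run 3. The summed secretory markers, Tgm4 among them, were highest in run 2 of the AP and higher in the VP than in the AP of run 3. In the AP of run 2 that sum included 37861 Sbp and 17218 Spink1 UMIs, with 93.2 and 92.6% of them in 5 cells. Pbsn, another of these markers, had 4367, 1258 and 161 UMIs in the AP of runs 1, 2 and 3, beside 6269, 1246 and 193 for Tgm4. In the VP, Pbsn had 13, 24 and 97 UMIs. The part of secretory RNA in both differences was not tested. In run 1, 5 AP cells held 45.3% of the 9530053A07Rik UMIs and 40.1% of the Tgm4 UMIs. Without run 1 the differences were 3.88 and 3.099, and without run 3 they were 5.41 and 4.69. With cells carrying markers of other types left out, the differences were 2.74 and 2.16. Tgm4 is among the secretory markers by which those cells were picked, so its value there is not independent of the filter. Psca, a surface antigen of proximal luminal cells, was at 168, 244 and 53.9 CPM in the AP and 34.6, 70.4 and 48.0 CPM in the VP (log2 1.54 ± 0.22, adjusted p = 2.75e-05), with 5 AP cells holding 73.0, 98.9 and 95.3% of its UMIs. Over 16 other settings of the blocked fit the difference of Psca fell as low as 0.07, and it was called in 13.

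Clu, the secreted chaperone clusterin, was at 132, 143 and 104 CPM in the AP and 4.61, 30.0 and 50.04 CPM in the VP (log2 2.13 ± 0.27, adjusted p = 6.66e-06), without overlap, and 5 AP cells held 60.3, 74.6 and 73.7% of its UMIs. Its difference was 2.85 without run 3. Over 16 other settings of the blocked fit the difference of Clu fell as low as 0.63, and it was called in 13. Tspan1, a tetraspanin, was at 238, 164 and 66.6 CPM in the AP and 32.3, 37.5 and 66.1 CPM in the VP (log2 1.69 ± 0.27, adjusted p = 0.000171). Tspan1 had both lobes alike in run 3, a difference of 2.48 without that run and an adjusted p of 0.115 without run 1. It was called in 13 of 16 other settings of the blocked fit. Scpep1, a serine carboxypeptidase, was at 384, 14.9 and 14.2 CPM in the AP and 83.0, 7.49 and 2.00 CPM in the VP (log2 2.10 ± 0.22, adjusted p = 6.99e-07). It was highest in run 1 in either lobe, with an adjusted p of 0.233 without run 1. Cd74, the MHC class II invariant chain, was at 30.1, 167 and 0.728 CPM in the AP and 4.61, 25.5 and 0 CPM in the VP (log2 2.71 ± 0.30, adjusted p = 9.49e-07), and 5 AP cells held 92.0% of its UMIs in run 2. Cd74 was too low to be tested once cells with markers of other types were left out.

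Immediate early genes, which dissociation of tissue induces, were called in both directions. Of 23 tested, 7 were higher in the AP and 2 in the VP, with a median log2 difference of 0.23. Nr4a2 was at 119, 148 and 156 CPM in the AP and 62.3, 64.4 and 80.1 CPM in the VP (log2 1.04 ± 0.14, adjusted p = 2.13e-05), without overlap, and Ier3 and Ier5 differed by 0.51 ± 0.10 (adjusted p = 0.00169) and 0.72 ± 0.13 (adjusted p = 0.000821). Fos and Fosb were higher in the VP, with log2 differences of -0.48 ± 0.13 (adjusted p = 0.0262) and -0.37 ± 0.11 (adjusted p = 0.0467), with Fos higher in the VP of 2 of 3 runs. Fos lost its call without run 2 or 3 (adjusted p = 0.133 and 0.447) and Fosb without run 1 or 2 (adjusted p = 0.132 and 0.517). Junb was at 4209.7, 3138 and 2475 CPM in the AP and 3106, 2419 and 2369.9 CPM in the VP (adjusted p = 0.058), and Atf3 differed by 0.33 ± 0.09 (adjusted p = 0.0262), with adjusted p of 0.0576 without run 2 and 0.217 without run 3.

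Runx1 itself, whose promoter drives the reporter, was at 69.4, 162 and 183 CPM in the AP and 53.0, 98.9 and 136 CPM in the VP, higher in the AP of each run (log2 0.53 ± 0.14, adjusted p = 0.0198). Its call was lost without run 1 (adjusted p = 0.0612) and without run 2 (adjusted p = 0.389) and under DESeq2 with the block (adjusted p = 0.554). Without the block its difference was 0.51 ± 0.41 (adjusted p = 1). Cbfb, the shared partner subunit, was at 17.1, 19.7 and 23.7 CPM in the AP and 23.1, 25.5 and 30.0 CPM in the VP (adjusted p = 0.577). Runx2 was at 10.7, 1.601 and 5.83 CPM in the AP and 6.92, 11.99 and 6.00 CPM in the VP (adjusted p = 0.716). Runx3 was too low to be tested, with 0.164, 2.67 and 0 CPM in the AP and 0 CPM in each VP sum.

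Several pathways showed no call in either direction. These were 11 Notch genes, 6 Hedgehog genes, 12 FGF genes, 17 genes of cholesterol synthesis, 75 nuclear genes of oxidative phosphorylation, 13 mitochondrially encoded genes and 6 imprinted growth regulators tested. Of 14 steroid receptors and targets, 2 were higher in the AP, Ndrg1 and Klf9, and none in the VP. Hes1, a Notch target, was at 215, 257 and 249 CPM in the AP and 239.8, 172 and 258 CPM in the VP (log2 0.12 ± 0.13, adjusted p = 0.751). A call that was not made does not show that the lobes were alike at these genes.

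**Figure D4:**
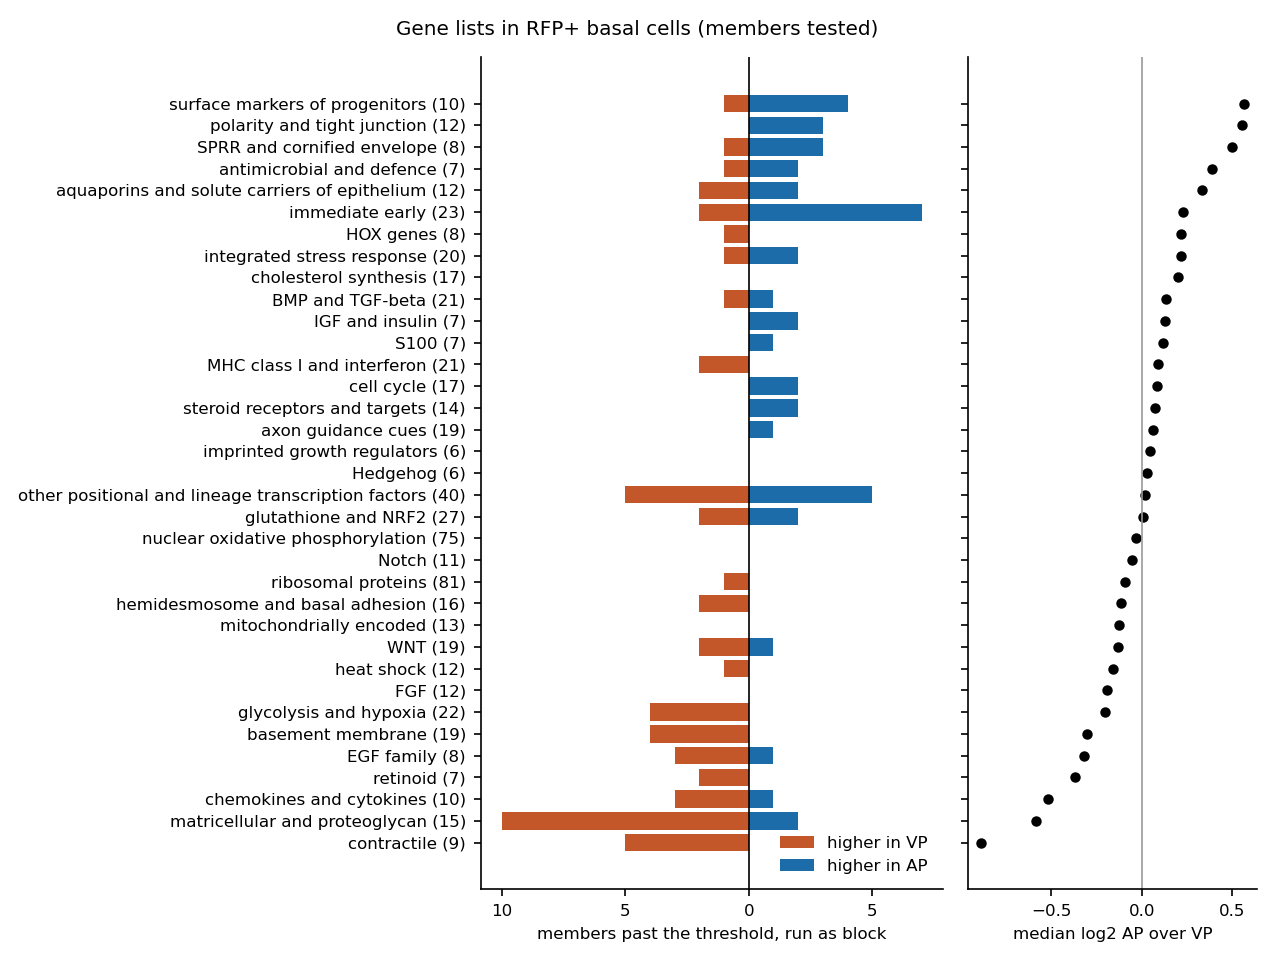
Left, number of members past the adjusted p of 0.05 with run as a block in the 35 lists with at least 5 members tested, VP-higher to the left in orange and AP-higher to the right in blue, with the number tested in parentheses. Right, median log2 AP over VP of the tested members without the block; contractile, matricellular and chemokine lists lie lowest and progenitor surface and tight junction lists highest.

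The RFP- basal cells of the same runs were a second set of AP and VP sums that the rule did not use. They held 85, 60 and 181 AP cells and 12, 70 and 98 VP cells. Without a run term no gene of 7224 passed (edgeR quasi-likelihood test), with 291 at an unadjusted p under 0.05 and 3 called by DESeq2. The 291 were fewer than that cutoff passes where no gene differs. With run as a block 124 passed (1.72%), 72 higher in the AP and 52 in the VP. Of the 414 genes called in RFP+ basal cells, 388 were tested in RFP- cells, 325 of these (83.8%) had the same direction, and 63 were called in both, 36 higher in the AP and 27 in the VP, with none in opposite directions. The 63 were 15.2% of the RFP+ calls and 50.8% of the RFP- calls. RFP+ and RFP- cells of a run shared mice and library. The share of same-direction genes over all genes tested was not taken, and the overlap is a description.

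S100a6 in RFP- basal cells was at 1205, 1698 and 2020.0 UMIs per 1000000 in the AP of runs 1, 2 and 3 and 502, 427 and 634 in the VP. With the block it differed by 1.62 ± 0.14 (adjusted p = 6.17e-10). Smoc2 was at 27.5, 22.3 and 18.9 UMIs per 1000000 in the AP and 75.7, 83.7 and 107 in the VP (log2 -2.19 ± 0.23, adjusted p = 1.71e-07). Dcn was at 3041, 2865 and 3676 and 4344, 4020.5 and 4843 (log2 -0.52 ± 0.12, adjusted p = 0.0112), and Anxa3 at 439.8, 358 and 347 and 331, 76.9 and 89.5 (log2 1.63 ± 0.18, adjusted p = 2.54e-07). Of the 4 genes called without the block, Ogn passed in RFP- cells at -1.68 ± 0.45 (adjusted p = 0.0438), Lhfp and Scnn1b did not at -0.69 ± 0.35 (adjusted p = 0.558) and -1.13 ± 0.34 (adjusted p = 0.0954), and Cck was too low to be tested. Tests of the difference between the RFP+ and RFP- contrasts called no gene of 8242 without the block, and none by DESeq2. At an unadjusted p under 0.05 there were 222, fewer than that cutoff passes where no gene differs. With the block 9 were called (0.109%, or 0.0607% toward the AP and 0.0485% toward the VP of RFP+ cells). Among these 9, Apoe and Tpm2 were higher in the VP of RFP+ cells and differed by -0.22 ± 0.12 (adjusted p = 0.626) and 0.22 ± 0.33 (adjusted p = 0.926) in RFP- cells.

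**Figure D5:**
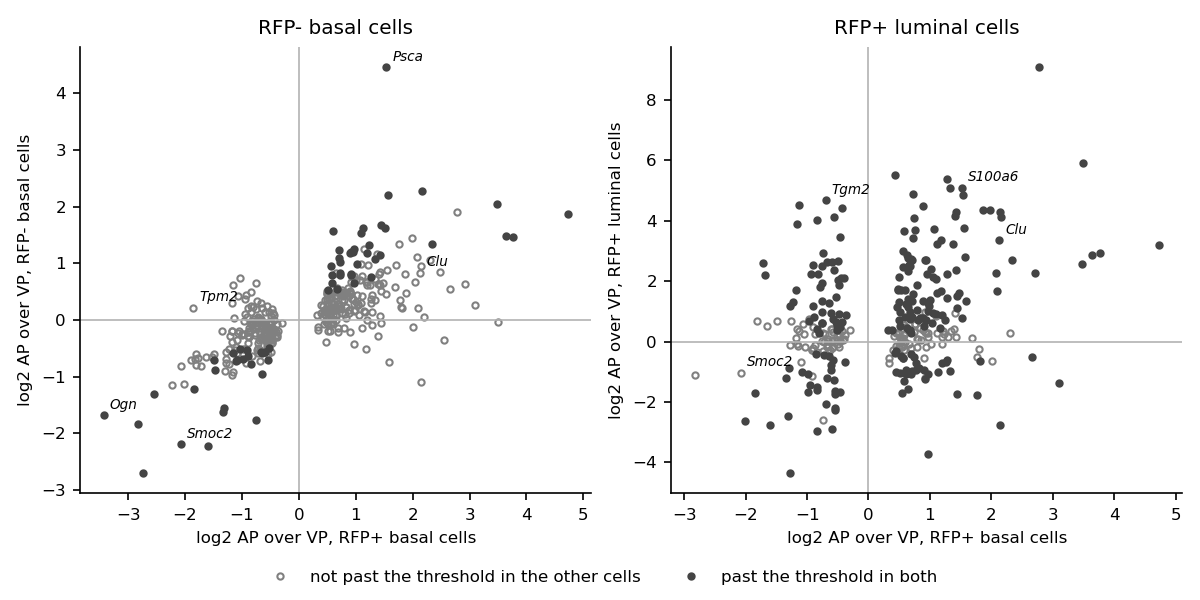
Log2 AP over VP of the genes called in RFP+ basal cells (run as a block, x axis) against the same contrast in RFP- basal cells (left, 388 genes tested) and RFP+ luminal cells (right, 333 genes tested), with filled points past the adjusted p of 0.05 in both. Directions are mostly shared with RFP- basal cells (325 of 388), while 195 of 333 share direction with luminal cells.

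Luminal cells of the same RFP+ gate were of different makeup in the lobes. The 10 proximal luminal markers summed to 16506, 10249 and 12294 UMIs per 1000000 in the AP against 3828, 1826 and 2734 in the VP. The 10 luminal secretory markers summed to 572880, 576399 and 549510 in the VP against 10157, 219861 and 12808 in the AP. The 10 basal markers summed to 2678, 1192 and 1125 in the AP against 150, 45.3 and 66.1 in the VP. The luminal contrast therefore sets cells rich in proximal markers, with more basal marker RNA, against cells rich in secretory RNA. It is not a contrast of 1 luminal cell type between lobes. Luminal cells (Krt5 and Krt14 under 1 and Krt8 and Krt18 at least 5 UMIs per 10000) numbered 172, 115 and 144 in the AP and 67, 146 and 155 in the VP, and 2557 of 9622 genes passed without a run term (26.6%), or 3806 with it (39.6%). For comparison, 4 genes passed without it and 414 with it in basal cells. Of the 414 basal genes, 333 were tested in luminal cells and 195 had the same direction. Both were called in 133 with the same direction and in 82 with the opposite one. A test of the difference between the 2 contrasts, without a run term, called 807 of 10645 genes (7.58%), 333 relatively higher in the AP of basal cells (3.13%) and 474 in the VP (4.45%), and this difference carries the unequal makeup of the luminal cells. With the block these were 8.02 and 8.29%.

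Some basement membrane and matrix genes lay toward the VP in basal cells and were higher in the AP of luminal cells. The AP luminal sums also held more RNA of the 10 basal markers, Lamb3 among them. The part of this RNA in the differences was not tested. Lamb3 in luminal cells was at 6.91, 5.601 and 7.53 UMIs per 1000000 in the AP and 0, 0.282 and 0.130 in the VP, a difference of 4.06 ± 0.51 (adjusted p = 0.00151) without the block. In basal cells without the block it was -0.57 ± 0.23 (adjusted p = 0.73), a difference called only with the block. The 2 contrasts differed by -4.56 ± 0.53 (adjusted p = 0.000537). Tgm2, a matrix-crosslinking transglutaminase, was higher in the AP of luminal cells by 4.71 ± 0.37 (adjusted p = 0.000498) and, with the block, higher in the VP of basal cells at -0.70 ± 0.12 (adjusted p = 0.000432), a difference of contrasts of -5.37 ± 0.45 (adjusted p = 0.000227). Id3 and S100a6 kept their direction and differed in size, at 5.09 ± 0.34 (adjusted p = 0.000405) and 5.09 ± 0.43 (adjusted p = 0.000538) in luminal cells with differences of contrasts of -3.87 ± 0.64 (adjusted p = 0.00377) and -3.48 ± 0.55 (adjusted p = 0.00291). Hoxb13 was higher in the VP of both, at -2.17 ± 0.34 (adjusted p = 0.00304) in luminal cells, and the contrasts differed by 1.67 ± 0.39 (adjusted p = 0.0212).

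In castrated mice, the RFP+ basal cells of run 2 numbered 152 in the AP and 71 in the VP, with no replicate, so values are given without a test. Of the 28 genes named above by the 4 unblocked and 24 blocked calls, 25 had the same direction there. These cells shared the library of run 2 with intact cells by which the 28 genes were picked. The share of same-direction genes over all genes was not taken, so the count is a description. S100a6 was at 1971 in the AP and 573 in the VP, in UMIs per 1000000, Smoc2 at 13.96 in the AP and 94.9 in the VP, Ogn at 4.29 in the AP and 34.2 in the VP and Lhfp at 6.44 in the AP and 26.6 in the VP. The 3 genes in the other direction were 9530053A07Rik, Hspb8 and Acta2, and Clu was at 688 in the AP and 625 in the VP. In the 365 RFP+ basal cells of the DLP in run 3, 17 of the 28 genes lay between the AP and VP of that run, 9 above both and 2 below both. S100a6 in the DLP was at 1335 UMIs per 1000000, between 2364 in the AP and 748 in the VP, Ogn at 6.56 against 3.70 and 61.5, and Cck at 13.4 against 1.01 and 14.1.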

How the data were processed

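The authors counted UMIs per gene and cell with Cell Ranger 3.1.0 on GRCm38 (mm10), per the labels and methods, and deposited raw counts for every cell, with raw counts of the MULTI-seq sample barcodes. Seurat 3.1.5 is also named in their notes. From these counts, cells were filtered, assigned and gated as stated above, with barcodes of median 0 skipped and barcodes paired with populations by the study's sample sheet, and UMIs summed per run and population (at least 10 cells). Sums were tested with edgeR 4.0.16 (TMM, filterByExpr, quasi-likelihood F-test, R 4.3.3), lobe as the only term, Benjamini-Hochberg over all genes tested, threshold 0.05. Errors are SE of the fitted log2 difference, its absolute value divided by the square root of F, with 3 runs per lobe. Without the block, p-values measure the spread between runs of a lobe. With the block, they measure the spread of the AP over VP differences within runs. Both rest on dispersion estimates that edgeR moderates over genes. The methods word the upper limit per cell in UMIs, and it was applied here to detected genes, with UMIs as an alternative. No doublets were removed beyond the limit on genes and the barcode rule. Totals ranged from 384217 to 5372834 UMIs per sum, and the precision of rare genes is limited by the VP sums.

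Run was also fitted as a block. AP and VP of a run share mice and library, and their deviations from the lobe means correlated at 0.558, 0.314 and 0.365. Those of different runs correlated between -0.408 and 0.111. The lobes were therefore taken as paired by run, and blocked values are printed beside results. The named-gene rule (12 genes per direction by log2 difference among those past the threshold, the same direction in 3 runs and mean CPM of 50 or more, cell type markers, list members and RUNX genes) named none of the first kind without the block, since the 4 genes called had means of 14.1 to 41.8 CPM. It was applied to the blocked fit and further genes were added after their values were seen. Members, lists and tests were chosen with earlier results of these data known. The alternatives were DESeq2 1.42.0, RLE scaling, library sizes without the 50 most abundant genes, no count filter, each run left out, stricter gates and barcode limits, Scrublet scores, and AP cells drawn to VP numbers. Shares at 5000 UMIs used 1 random draw. Coordinates are from GENCODE vM21. The explant run was not analysed here. Results of a few genes are not reported here.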

Additional observations from a re-analysis of the deposited data

Results flagged for a closer look

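The difference between the AP over VP contrasts of RFP+ basal and RFP+ luminal cells was past the threshold (edgeR quasi-likelihood test of the interaction without a run term, adjusted p under 0.05) for 807 genes, among them 26 of the genes named here. Values are log2 AP over VP in basal minus that in luminal cells. They were negative, that is relatively more VP-sided in basal cells, for Tgm2 (-5.37), Fbln2 (-4.91), Ctgf (-4.79), Lamb3 (-4.56), Krt15 (-4.20), Id1 (-4.14), Id3 (-3.87), Lama3 (-3.67), S100a6 (-3.48), Sox2 (-3.08), Foxc1 (-2.96), Sdc1 (-2.90), Egln3 (-2.71), Pltp (-2.63), Axin2 (-2.61), Lcn2 (-2.47), Id2 (-2.39), Gsta3 (-2.14), Anxa3 (-1.92), Sfn (-1.75), Itgb4 (-1.73), Irx2 (-1.44), Smad7 (-1.30), Fosb (-1.22), Nfib (-1.13). The value was positive for Hoxb13 (1.67). Fbln2, Egln3 and Pltp were too low to be tested in luminal cells alone, so their values rest on low luminal counts. Lamb3, Krt15 and Itgb4 are among the 10 basal markers, whose summed RNA in luminal cells was higher in the AP of each run. The count rested on all 3 runs, at 521 genes without run 1, 49 without run 2 and 48 without run 3, and was 1737 with run as a block.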

How the results depend on the processing

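Without a run term, the lobe comparison called 4 genes, and 49 (15 higher in the AP, 34 in the VP) under DESeq2. It called 14 with the barcode thresholds of the study's supplementary file, 7 with library sizes without the 50 most abundant genes, 1 with Krt5 and Krt14 at least 20 per 10000, and 1, higher in the AP, with a limit of 7500 UMIs, the unit in which the study's methods word that limit. Calls were 131 (86 and 45) without a count filter, 414 with run as a block, and 0 with a stricter barcode ratio, without cells with markers of other cell types, or with AP cells drawn down to VP numbers. Leaving out 1 run gave 0 to 6, and the 6 without run 3 were 5 higher in the AP and 1 in the VP, against 0 and 4 with all runs. With the block, the 414 calls became 136 under DESeq2, 249 with Krt5 and Krt14 at least 20 per 10000 and 44 with a limit of 7500 UMIs, and 210 to 531 when 1 run was left out (210 without run 1, 266 without run 2). Without a count filter they were 597, split 408 to 189. DESeq2 called 3 genes in RFP- basal cells, where the block gave 124, no count filter 124, and leaving out 1 run 0 to 2. The basal against luminal difference gave 1737 with the block and 48 to 521 with 1 run left out, and the RFP+ against RFP- difference 9 with the block and 9 without a count filter.

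Of the 93 named genes called with the block, 63 of 93 tested were still called under DESeq2, 84 of 89 without cells with markers of other cell types, 68 of 91, 70 of 92 and 89 of 93 without runs 1, 2 and 3, and 25 of 57 with a limit of 7500 UMIs. Directions reversed for Mgp without cells with markers of other cell types (-0.55, and -0.45 with the block), for Thbs1 with the block and a limit of 7500 UMIs (0.22), and for Runx2, not called, with the block and without run 2 (0.33), and the causes were not tested. The thresholds of the supplementary file, the removal of cells with markers of other types and the blocked versions of all settings other than the block itself were added after seeing the data. VP sums of 29 to 62 cells limit what was detectable for genes of low level.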
